A study of Mus musculus with 6 samples.

Results

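Transcripts of the proteasome and of the enzymes that attach and remove ubiquitin were followed in mouse embryos that developed from artificially activated eggs. The families were defined by name: probes whose platform annotation gives exactly 1 gene symbol, and that symbol begins as a proteasome subunit (Psma to Psmg with a digit), a ubiquitin-conjugating enzyme (Ube2), a Ube3 ligase, a cullin (Cul), an F-box protein (Fbxl, Fbxo or Fbxw) or a deubiquitinase (Usp or Uchl). Of 87 such probes, 1 stood at exactly 0 on all 6 arrays and was dropped. The other 86 probes were averaged per gene and gave 70 of the 4742 genes tested: 16 proteasome genes, 15 conjugating enzymes, 23 ligase parts and 16 deubiquitinases. No Ube3, Uchl or Psmg gene is among them. Psme3ip1 and Usp6nl entered by name only, since the first is a partner of an activator subunit and the second belongs to the regulators of Rab GTPases. A further 116 genes of these families, 33 of them proteasome genes, were found only on probes annotated with several genes and were not analysed here. The members are therefore a sample of each family and not the whole of it.

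The series compared embryos from eggs activated with cycloheximide (spelled cyclohexamide in the labels), an inhibitor of protein synthesis, with embryos from eggs activated with strontium chloride, 3 arrays each. Its title poses the question of the absence of a calcium signal at activation; strontium makes the egg release calcium in repeated waves and cycloheximide activates it without them. Both groups were activated at metaphase 2 in the presence of cytochalasin D, which blocks actin-driven extrusion of the polar body. With no sperm involved, the embryos of both groups are parthenogenetic and have no paternal genome. Both were then kept in KSOM medium for 60 h, and each array received Cy3-labelled product made in 2 rounds of amplification from the mRNA of 25 embryos. A commercial standard, Universal Mouse Reference RNA, filled the Cy5 channel throughout after 1 round of amplification. The strain is not given in the sources used here, and no array of fertilized embryos was analysed here. Whether each array had its own culture is not stated, and so a p-value here reflects the scatter between arrays alone, part or all of which may be technical.

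Ubiquitin is passed from an activating enzyme to a conjugating enzyme and, with the help of a ligase, onto a target protein. Cullins are the scaffolds of one large class of ligases, and F-box proteins are the interchangeable parts that select targets for the ligases built on cullin 1. A chain of ubiquitin marks a protein for the proteasome, a barrel of alpha and beta subunits capped by a regulatory particle that binds, unfolds and feeds in the substrate. Deubiquitinases remove or trim ubiquitin and can spare the target. This machinery carries the egg out of metaphase arrest, when the anaphase-promoting complex is released from its inhibitor, and clears proteins inherited from the egg as the embryo takes over.

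Values are log2 ratios of embryo over reference. The deposited log10 ratios do not state their direction; it is likely reference over embryo, so each was turned in sign and multiplied by 3.32 (log2 of 10), and with the other direction all signs would be reversed. A ratio compares 1 gene between embryo and reference and says nothing of how abundant 1 gene is beside another. The dyes were not exchanged and the channels differ in rounds of amplification, so a ratio also carries any dye and amplification effect of its probe, whereas a difference between the groups does not carry the part common to all arrays. In bulk samples, fewer cells of a type and less RNA per cell cannot be told apart. The fibroblast markers measured (Col1a1, Sparc and Col6a1) were at least 2-fold below the reference on every array. All 8 markers of pluripotent cells lay above 0 on all 6 arrays, where 1707 of 4742 genes did. Their mean ratios ran from 0.18 for Zfp42, beside a median of 0.16 over all genes, to Tdgf1 at the table's limit of 100-fold. Of 4 trophectoderm and epithelium markers, 3 (Gata3, Tfap2a and Cdh1) lay lower on every cycloheximide array than on any strontium array. Of all genes 5.9% were separated in that direction. The 3 markers differed by -1.02 to -0.49 (limma adjusted p from 0.685 to 0.717). Over the 4 markers the array medians ran from 0.03 to 0.39 with cycloheximide and from 0.48 to 0.78 with strontium. Their part in the differences given here was not tested. The interquartile range of the log2 ratios ran from 1.11 to 1.60 over the arrays. The third cycloheximide array stood apart. Its log2 ratios correlated across probes at 0.909 with the third strontium array and at 0.855 and 0.853 with the first and second. With the other arrays of its own group they correlated at 0.762 and 0.81. The third strontium array also lay off its group to a degree, as the farthest of the 3 for 46.1% of all genes.

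Against the reference, the members of a class did not lie together. The spread was widest within the proteasome, where the SD between genes of the mean ratio was 2.16, against 1.19 for conjugating enzymes, 1.11 for ligase parts, 1.70 for deubiquitinases and 1.24 for all genes. On every array at least 2-fold below the reference were 12 members, 17.1% of the 70, where 9.64% of all genes were. At least 2-fold above on every array were 8 members, or 11.4%, where 4.47% of all genes were. Of the 12 low members 6 were proteasome genes, 3 conjugating enzymes, 1 a ligase part and 2 deubiquitinases. Of the 8 high members 4 were ligase parts, 2 deubiquitinases, 1 a proteasome gene and 1 a conjugating enzyme.

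**Figure D1:**
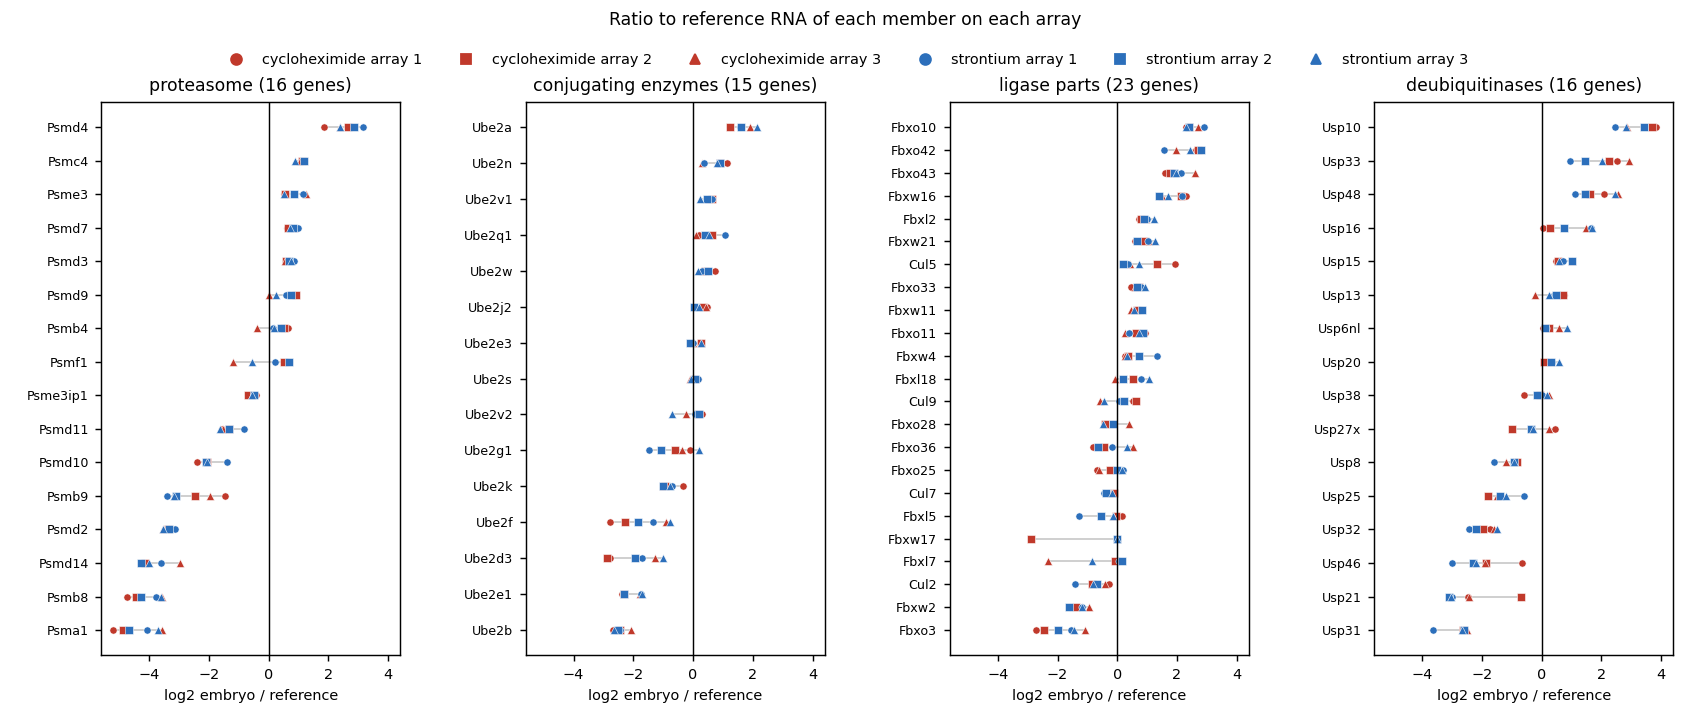
Log2 ratio of embryo over reference for each of the 70 members, 1 row per gene by class and 1 point per array, coloured by group. Points of 1 gene mostly lie close together while genes of 1 class are far apart, with Psma1 lowest at a mean of -4.35 and Usp10 highest at 3.18.

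The class medians lay closer together than the genes within a class. The median ratio was -0.24 over 16 proteasome genes, 0.05 over conjugating enzymes, 0.50 over ligase parts, 0.12 over deubiquitinases and 0.16 over all 4742 genes. Ligase parts lay above conjugating enzymes on 6 of 6 arrays and above deubiquitinases on 5. The proteasome median lay below each other class on 6 of 6 arrays, but this rests on Psme3ip1, which is no subunit: the genes next to it in order were Psmd11 at -1.36 and Psmf1 at 0.06. Without it the median was 0.06, and the 15 genes lay above the conjugating enzymes on 4 of 6 arrays and below them on the third array of each group. These medians are descriptions without a test.

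**Figure D2:**
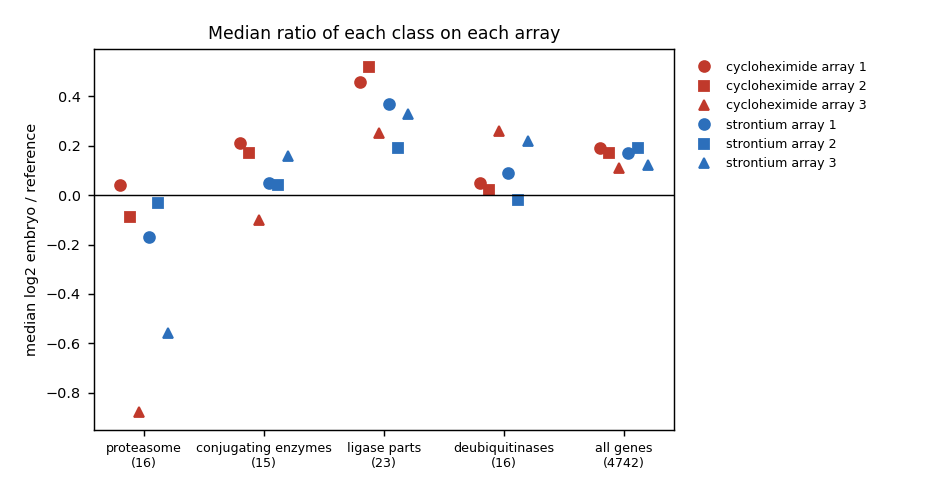
Median log2 ratio of embryo over reference on each of the 6 arrays, with the 4 classes and all 4742 genes on the horizontal axis and 1 marker per array. The proteasome points, Psme3ip1 included, lie below those of the other 3 classes on every array and lowest on the third cycloheximide array, at -0.88.

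Among the core subunits, Psma1, an alpha subunit of the barrel's outer ring, had the lowest mean ratio of all members. Its log2 ratios were -5.21, -4.88 and -3.56 with cycloheximide and -4.08, -4.69 and -3.69 with strontium, a mean of -4.35 or 20.4-fold below the reference. Only 0.654% of all genes had a ratio as low or lower. The only constitutive beta subunit measured, Psmb4, lay near the reference, with 0.66, 0.51 and -0.38 against 0.14, 0.42 and 0.19. Psmb8 and Psmb9 are inducible beta subunits of the immunoproteasome, which replace constitutive catalytic subunits in immune cells and after interferon; the other such subunit, Psmb10, was not analysed here. Psmb8 stood at -4.74, -4.43 and -3.58 with cycloheximide and -3.78, -4.29 and -3.61 with strontium, 16.8-fold below the reference on average. Psmb9 stood at -1.46, -2.46 and -1.95 against -3.40, -3.10 and -3.17, 6.03-fold below on average. Both were low on every array, and Psmb9 was less low in each cycloheximide sample than in any strontium sample.

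The start regions of 4 of these genes are given because they hold the extremes of the proteasome ratios and the pair of immunoproteasome genes. Each is the 250 bases before an annotated start, from RefSeq on GRCm38.p6, read 5′ to 3′ on the gene's strand, with matches to 4 short motifs in capitals. They are Psmb8 at chr17:34197945-34198194 (plus strand), Psmb9 at chr17:34187331-34187580 (minus strand), Psmd4 at chr3:95042615-95042864 (minus strand) and Psma1 at chr7:114276117-114276366 (minus strand).
Psmb8: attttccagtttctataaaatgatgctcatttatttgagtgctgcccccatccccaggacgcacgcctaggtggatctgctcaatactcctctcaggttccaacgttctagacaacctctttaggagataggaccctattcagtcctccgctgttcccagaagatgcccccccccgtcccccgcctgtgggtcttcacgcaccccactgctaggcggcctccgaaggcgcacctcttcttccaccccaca
Psmb9: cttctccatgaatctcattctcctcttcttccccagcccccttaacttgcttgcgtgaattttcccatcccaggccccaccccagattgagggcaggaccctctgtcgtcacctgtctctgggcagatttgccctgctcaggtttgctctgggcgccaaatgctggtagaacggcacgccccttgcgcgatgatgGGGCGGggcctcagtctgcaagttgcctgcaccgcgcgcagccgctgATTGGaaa
Psmd4: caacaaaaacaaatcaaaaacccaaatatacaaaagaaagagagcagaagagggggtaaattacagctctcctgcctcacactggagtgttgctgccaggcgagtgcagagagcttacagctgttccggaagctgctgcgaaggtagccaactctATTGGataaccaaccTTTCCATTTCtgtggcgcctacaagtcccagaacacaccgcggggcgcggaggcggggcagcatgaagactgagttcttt
Psma1: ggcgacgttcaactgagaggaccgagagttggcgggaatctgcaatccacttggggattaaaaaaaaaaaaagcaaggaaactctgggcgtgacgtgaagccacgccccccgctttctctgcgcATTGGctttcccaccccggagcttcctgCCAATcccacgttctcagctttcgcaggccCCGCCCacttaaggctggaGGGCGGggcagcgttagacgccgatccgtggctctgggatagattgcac

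The motifs were searched on both strands: the CCAAT box (CCAAT), the GC box (GGGCGG), the antioxidant response element (TGACNNNGC) and the interferon-stimulated response element (GAAA and GAAA separated by any 2 bases). Psma1, the lowest gene, holds 2 CCAAT boxes and 2 GC boxes, Psmb9 holds 1 of each, and Psmd4, the highest proteasome gene, holds 1 CCAAT box and 1 match to the interferon-stimulated element. The Psmb8 window holds none of the 4. Windows of 1 chromosome were left out of the matching and of the counts that follow. In windows of 300 bases that add the first bases of the transcript, a CCAAT box occurs in 46.7% of the 15 proteasome windows, 24.3% of the 70 member windows and 37.4% of the 32851 windows kept. A GC box occurs in 60.0%, 72.9% and 35.7%. The antioxidant element, bound by factors that raise proteasome genes when the proteasome is impaired, occurs in 6.67% (1 window), 17.1% and 12.4%. The interferon-stimulated element occurs in 13.3%, 4.29% and 3.44%. That 13.3% is 2 windows, those of Psmd4 and Psmd9, and neither is an immunoproteasome gene. The windows matched 58 of the 70 members, and a match is a description of letters.

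The regulatory particle was divided. Psmd14, the deubiquitinase built into the particle, lay between -4.27 and -2.97 on the 6 arrays, 14.5-fold below the reference on average. Psmd2, a large scaffold subunit, lay between -3.55 and -3.15, 10.5-fold below; its probes had means of -2.36 and -4.43, both low on every array. Psmd10, also called gankyrin, helps to assemble the particle and lay between -2.39 and -1.39. Psmd11 lay between -1.62 and -0.82. On the other side, Psmd4, a receptor for ubiquitin chains, had log2 ratios of 1.84, 2.66 and 2.40 with cycloheximide and 3.16, 2.84 and 2.38 with strontium, 5.84-fold above the reference on average. The ATPase Psmc4 lay between 0.89 and 1.19. Psmd3, Psmd7 and the assembly chaperone Psmd9 had mean ratios within 1 of the reference. So did the activator Psme3 and the inhibitor Psmf1, the latter running from -1.19 on the third cycloheximide array to 0.69 on the first. Subunits of 1 particle thus lay on opposite sides of the reference by more than the spread between arrays. That spread leaves out the effect of a probe, which repeats on every array. Psmd4, Psmd14, Psmd10, Psmd11 and Psmc4 rest on 1 probe each, and the probes of Psmd2 differed by 2.07 in mean ratio. The part of probe effects in this contrast was not tested.

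Most conjugating enzymes lay near the reference. Ube2a and Ube2b, the near-identical mammalian counterparts of yeast Rad6, which act in repair of DNA damage and in ubiquitination of histone H2B, lay on opposite sides. Ube2a had 1.24, 1.25 and 1.89 with cycloheximide and 1.56, 1.60 and 2.15 with strontium. Ube2b had -2.67, -2.43 and -2.08 against -2.44, -2.52 and -2.65. No array of the 6 brought the pair near to each other; the files do not say whether a probe could pick up the paralog. Ube2d3 and Ube2e1, enzymes that serve many ligases, lay between -2.89 and -1.0 and between -2.39 and -1.72. Ube2f, which carries the ubiquitin-like protein Nedd8 to cullins, lay between -2.77 and -0.76, but its probes had means of -0.72 and -2.58. The enzyme that builds chains on the products of the anaphase-promoting complex, Ube2s, stayed between -0.10 and 0.17 on all arrays. Ube2n and its partners Ube2v1 and Ube2v2, which together make signalling chains, had mean ratios within 1 of the reference. But the 3 probes of Ube2n had means of 2.21, -0.04 and 0.03, and those of Ube2v1 had -0.18 and 1.20. The averages of Ube2n and Ube2v1 thus depend on the probe.

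Ligase parts were the class with the highest median. Fbxo10 lay between 2.29 and 2.91 on the 6 arrays, 5.67-fold above the reference on average, and Fbxo42 between 1.56 and 2.80. Fbxo43, known as Emi2, is the inhibitor that holds the anaphase-promoting complex in the unfertilized egg and is destroyed after the calcium signal of fertilization. At 60 h its transcript had log2 ratios of 1.59, 1.76 and 2.59 with cycloheximide and 2.12, 1.90 and 1.98 with strontium, 3.97-fold above the reference on average. The groups overlapped. Fbxw16 also lay above 1 on every array, between 1.41 and 2.29, but its probes had means of 3.52 and 0.20. The lowest ligase part was Fbxo3, with -2.73, -2.47 and -1.07 against -1.55, -2.0 and -1.45. Fbxw2, between -1.62 and -0.96, came next. Fbxw17 is listed at exactly 0 on 5 of the 6 arrays and at -2.89 on the second cycloheximide array, so no ratio can be read for it.

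The cullins were closer together. Mean ratios were 0.83 for Cul5, which works with SOCS-box proteins, 0.06 for Cul9, -0.27 for Cul7 and -0.74 for Cul2, the scaffold used by the VHL protein. Cul2 lay below 0 on all 6 arrays and Cul5 above 0 on all 6. The next neighbours in this order, Cul9 and Cul7, had array values that overlap.

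Deubiquitinases held the highest mean ratio of all members. Usp10, which removes ubiquitin from p53 and works with the stress-granule protein G3BP, had 3.82, 3.69 and 2.86 with cycloheximide and 2.47, 3.42 and 2.82 with strontium. That is 9.06-fold above the reference on average. Usp33 and Usp48 were 4.04-fold and 3.68-fold above. The lowest were Usp31, between -3.65 and -2.5, then Usp21, Usp46 and Usp32, which were 5.48-fold, 3.96-fold and 3.73-fold below. Usp16, a deubiquitinase of histone H2A needed in cell division, ran from 0.06 to 1.68. Usp8, which acts on receptors at endosomes, lay between -1.60 and -0.82.

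Between the activation treatments, no member passed the test. limma's moderated test called 0 of 4742 genes at a Benjamini-Hochberg adjusted p under 0.05, which is 0% of genes; the lowest adjusted p was 0.4 over all genes and 0.605 over the members, for Psmb9. At an unadjusted p under 0.05 limma gave 3 members higher with cycloheximide (Psmb9, Usp33 and Usp46) and 1 lower (Fbxo25), where 4.28% of all genes were higher and 2.36% lower. Read against those shares, 3 and 1 of 70 are near the background. The median SE of a member's difference was 0.276 log2, so the 95% interval was typically 0.673 wide on each side, or 1.59-fold. The SE ran from 0.144 to 0.79 over the members, so the interval differs between genes.

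**Figure D3:**
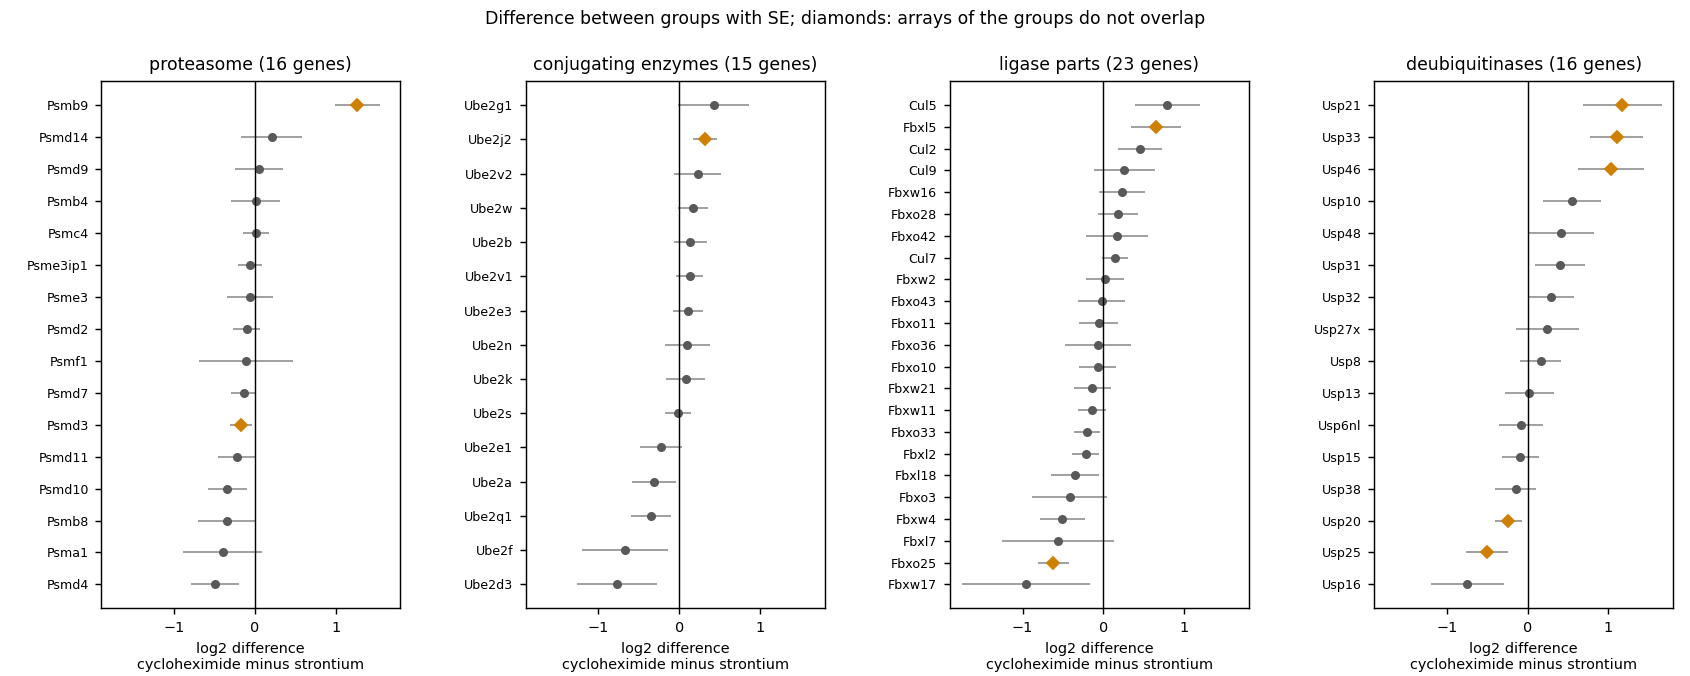
Difference in log2 ratio, cycloheximide minus strontium, for each of the 70 members by class, with bars of 1 SE from limma. Psmb9 at 1.27 and Usp21 at 1.17 are the largest positive differences and Fbxw17, whose values are mostly exactly 0, the largest negative at -0.96.

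By class, the median difference was -0.11 for the proteasome, 0.10 for conjugating enzymes, -0.07 for ligase parts and 0.20 for deubiquitinases, against -0.04 for all members and -0.03 for all genes. The proteasome had 5 differences above 0 and 11 below, conjugating enzymes 9 and 6, ligase parts 9 and 14, and deubiquitinases 10 and 6. Over all genes 2149 were above 0 and 2593 below. These class medians have no test.

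For 6 members every cycloheximide array lay above every strontium array: Psmb9, Usp33, Usp46, Usp21, Ube2j2 and Fbxl5. For 4 it was the reverse: Fbxo25, Usp25, Usp20 and Psmd3. In Fbxl5, Usp25 and Usp20 the nearest arrays of the groups were equal to 2 decimals, so the separation there rests on smaller differences than are printed. Among all genes such a separation occurred for 6.01% upward and 5.9% downward, so 6 and 4 of 70 are again near the background.

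**Figure D4:**
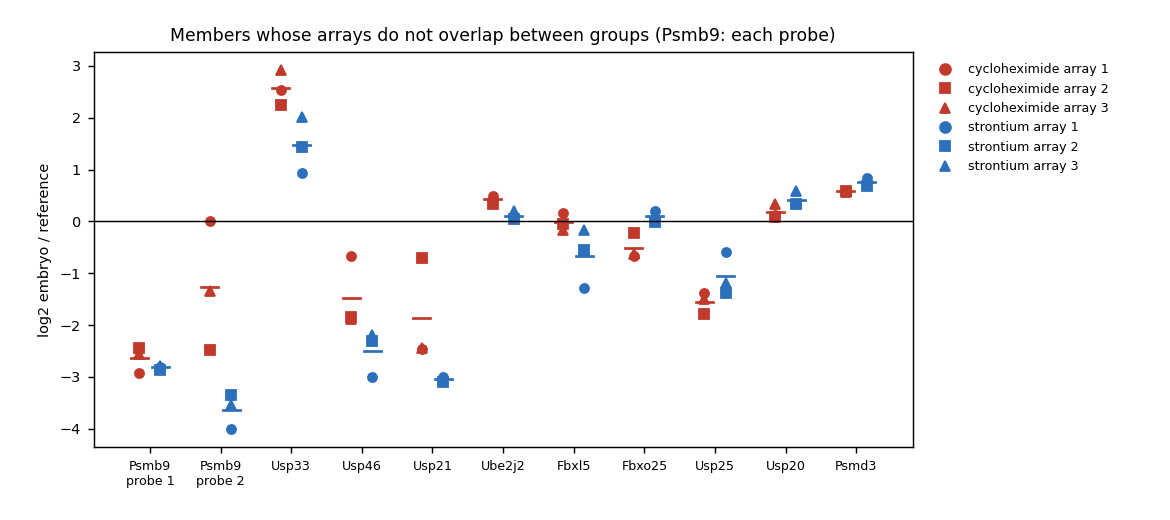
Log2 ratio of embryo over reference on each array for the members whose groups do not overlap, with Psmb9 shown as its 2 probes. Probe 1 of Psmb9 overlaps between the groups, and probe 2 carries the separation with 1 value at exactly 0 on the first cycloheximide array.

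Psmb9 had the smallest p among members. The mean ratio was -1.96 ± 0.50 (SD, n = 3) with cycloheximide and -3.22 ± 0.16 (SD, n = 3) with strontium, a difference of 1.27 (SE 0.28; limma adjusted p = 0.605). Its probes disagreed. Probe 1 gave -2.92, -2.44 and -2.56 against -2.80, -2.86 and -2.79, a difference of 0.17. Probe 2 gave exactly 0, -2.48 and -1.34 against -4.01, -3.35 and -3.54, a difference of 2.36. With values of exactly 0 set to missing the gene's difference was 0.78. Psmb8, the other immunoproteasome subunit, differed by -0.35 (SE 0.35; limma adjusted p = 0.874).

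Of the deubiquitinases, Usp33 had 2.53, 2.24 and 2.92 with cycloheximide and 0.94, 1.44 and 2.02 with strontium. Its difference was 1.10 (SE 0.33; limma adjusted p = 0.717), with no overlap. Usp20, its closest relative, had 0.12, 0.08 and 0.33 against 0.34, 0.33 and 0.58, a difference of -0.24 (limma adjusted p = 0.842). Usp46, a small deubiquitinase switched on by WD-repeat partners, had -0.67, -1.85 and -1.89 against -3.00, -2.31 and -2.19, a difference of 1.03 (SE 0.41; limma adjusted p = 0.74) that was 0.63 without the first cycloheximide array. Usp21, which acts on histone H2A among other targets, had -2.47, -0.70 and -2.44 against -3.00, -3.10 and -3.02. Its difference of 1.17 (SE 0.49; limma adjusted p = 0.74) was 0.59 without the second cycloheximide array. Usp25 differed by -0.50, with -1.38, -1.79 and -1.49 against -0.59, -1.38 and -1.19, and by -0.27 without the first strontium array.

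Among ligase parts, Fbxo25 had -0.67, -0.23 and -0.63 with cycloheximide and 0.20, -0.01 and 0.14 with strontium. Its difference was -0.62 (SE 0.19; limma adjusted p = 0.717). Fbxl5, the iron-sensing F-box protein that targets iron regulatory protein 2 for destruction, had 0.16, -0.05 and -0.16 against -1.29, -0.55 and -0.16, a difference of 0.65 that was 0.34 without the first strontium array. All 4 cullins had positive differences, 0.79 for Cul5, 0.45 for Cul2, 0.26 for Cul9 and 0.14 for Cul7, and all 4 overlapped between groups. Cul5 differed by 0.44 without the first cycloheximide array, and Cul2 by 0.22 without the first strontium array. Fbxo43 differed by -0.02 (SE 0.29; limma adjusted p = 0.994), an SE close to the median of the members.

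Among conjugating enzymes and the rest of the proteasome the separations were small. Ube2j2, an enzyme of the endoplasmic reticulum that handles misfolded proteins, had 0.48, 0.34 and 0.45 with cycloheximide and 0.07, 0.04 and 0.19 with strontium, a difference of 0.32 that came from 1 of its probes (0.66, against -0.03 for the other). Psmd3, a subunit of the lid, had 0.59, 0.59 and 0.56 against 0.84, 0.69 and 0.73, a difference of -0.17. Psmd4 differed by -0.49 and overlapped between groups. Psmc4 differed by 0.01 and Ube2s by -0.01. The difference of 0.01 for Psmb4 averages probes that went opposite ways, at -0.45 and 0.48.

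The third cycloheximide array weighed on many of these values. Measured from the mean of the other arrays of its group, it was the farthest array for 45 of 70 members (64.3%), as for 68.2% of all genes. Without it, 43 members' differences changed in size by over 1.5 times. That count takes in small shifts, such as Psmc4 from 0.01 to 0.03, and leaves out a change of sign alone. Its share over all genes was not computed, so it is no trait of the members. At an unadjusted p under 0.05 limma without that array gave 7 members higher and 7 lower. Of all genes 7.36% were higher and 11.5% lower, and 0 members passed an adjusted p under 0.05. The lowest adjusted p was 0.206, for Cul5, Fbxo3, Psmb9 and Ube2d3. Cul5 went from 0.79 to 1.20, Ube2d3 from -0.77 to -1.29, Ube2f from -0.67 to -1.21, Usp16 from -0.75 to -1.19, Fbxo3 from -0.42 to -0.93, Psma1 from -0.40 to -0.89 and Usp10 from 0.55 to 0.85. Psmb9 (1.26) and Fbxo25 (-0.56) changed little. In Cul5, Ube2d3, Ube2f and Usp16 the third cycloheximide array lay among the strontium arrays, while the first and second lay outside them.

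Other genes of the pathway were taken from lists of known parts. Of the enzymes that activate ubiquitin and its relatives 2 were measured, and of the ubiquitin precursors none. The difference was above 0 for 1 and below for 1; Uba6, the second activating enzyme for ubiquitin, lay at a mean ratio of -1.80 and Sae1, part of the SUMO activator, at 1.31. Of 6 ubiquitin-like modifiers and their proteases 5 differences were above 0 and 1 below. Senp6, which trims SUMO chains, had the largest, 1.20 (SE 0.72; limma adjusted p = 0.84), which was 0.57 without the first strontium array. Ufm1 had a mean ratio of 1.47 and Urm1 of -1.75.

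Around the cullins, 8 core parts and substrate receptors outside the name rule had 4 differences above 0 and 4 below. Btrc, the F-box protein that recognizes phosphorylated beta-catenin and Emi proteins, had a mean ratio of 2.09 and its relative Fbxw11 0.67. Skp1 and Rbx1, the adaptor and the RING subunit common to F-box ligases, had -1.71 and -2.20. Elob differed by -0.29 between groups, with no overlap. Of 4 subunits of the COP9 signalosome, which strips Nedd8 from cullins, 2 differences were above 0 and 2 below; Gps1 lay at 0.96 and Cops4 at -3.15.

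The anaphase-promoting complex list had 6 genes measured, 4 differences above 0 and 2 below. Cdc20, the activator that opens anaphase, lay at a mean ratio of 1.90 and overlapped between groups. Mad2l1, the checkpoint protein that holds Cdc20, had -0.90, -1.51 and -0.52 with cycloheximide and -1.96, -1.88 and -1.64 with strontium, a difference of 0.85 (SE 0.28; limma adjusted p = 0.732).

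Of 11 shuttles, receptors and regulators, 5 differences were above 0 and 6 below. Nfe2l1, the transcription factor that raises proteasome genes when the proteasome is impaired, had 0.76, 1.00 and 0.56 against 0.18, 0.46 and 0.33, a difference of 0.45 (SE 0.19; limma adjusted p = 0.74). Rad23b, which carries ubiquitinated proteins to the proteasome, lay at a ratio of 0.87 and Ecpas, a proteasome-binding scaffold, at -2.46. Of 13 other deubiquitinases 6 differences were above 0 and 7 below; Mindy1 differed by 0.44 with no overlap, and the extreme ratios were Mysm1 at 1.35 and Mindy2 at -2.09. Of 36 other HECT and RING ligases 17 were above 0 and 19 below. Rnf144b, a RING-type ligase, had -0.04, -0.09 and -0.33 with cycloheximide and 0.78, 0.58 and 0.87 with strontium, a difference of -0.90 (SE 0.17; limma adjusted p = 0.588), which was the smallest p in these lists. Herc4 had the highest ratio, 2.38, and Trim59 the lowest, -2.42. No gene of these lists passed an adjusted p under 0.05.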

How the data were processed

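For 22132 probes on each array the authors deposited a log10 ratio, made with Agilent Feature Extraction per the submitters' processing notes (version and settings not given in the sources used here). Values stop at 2 and -2, and values of exactly 0, probably ratios that were not set, stayed as 0. Spot intensities were not used, which leaves signal over background unknown; the number of arrays limits the precision.

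Each ratio was turned in sign and multiplied by 3.32. The platform annotation gives 1 gene for 6249 probes, several for 9389 and none for 6494. Leaving out 211 probes at 0 on all arrays left 6152 of the probes with 1 gene, averaged to 4742 genes. limma 3.58.1 (lmFit and eBayes, R 4.3.3) compared cycloheximide with strontium, with Benjamini-Hochberg adjustment over all 4742 genes. The fit was also run on simulated data, whose noise was independent between arrays, and no conclusion is drawn from that run. Means are over 3 arrays a group.

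Members and lists were chosen with earlier results of these data known. The rule for naming genes gave, per class, the 3 smallest p in each direction and the 3 highest and lowest ratios. It also gave all cullins, beta and immunoproteasome subunits, and genes with values at 0 or disagreeing probes. Per further list it gave the smallest p and extreme ratios. Not described above, though the rule gave them, are Fbxl2 (difference -0.22), Fbxw4 (-0.51), Ube2q1 (-0.35), Ube2g1 (0.43) and Ube2w (0.17). Others named were chosen after their values were seen. Lists covered ubiquitin precursors, activating enzymes, ubiquitin-like modifiers, cullin core, anaphase-promoting complex, COP9 signalosome, shuttles, other deubiquitinases and other ligases. Alternatives were other normalizations, treatment of zeros and limits, probe medians, array weights, a replicate block, a trended robust fit and leaving out each array. Counts at least 2-fold and medians without the genes matched by name only were added after seeing the data.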

Additional observations from a re-analysis of the deposited data

How the results depend on the processing

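At an adjusted p under 0.05 limma called 0 genes under every alternative run. The replicate block, which pairs arrays that share a number, gave 0 calls too. Arrays that share a number had deviations correlated at 0.056 (first), 0.379 (second) and 0.501. The first cycloheximide array correlated best with the second strontium array (0.457). The other cycloheximide arrays correlated best with the strontium array of their own number. Whether array numbers pair the samples was not tested. With that block limma gave 314 genes higher and 177 lower at an unadjusted p under 0.05, members 2 and 3, and a lowest member adjusted p of 0.454 (Usp33). Array weights gave 447 and 537 genes, members 8 and 6, and a lowest member adjusted p of 0.171. Scale normalization gave 137 and 97 genes, members 1 and 3. Members at least 2-fold off on every array numbered 7 to 9 above and 10 to 15 below.

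Subtracting array medians moved the median ratio of all genes from 0.16 to -0.01, conjugating enzymes to -0.13, ligase parts to 0.33 and deubiquitinases to -0.05; subtracting line medians put conjugating enzymes at -0.08, and leaving out Usp6nl put deubiquitinases at -0.05. The median difference of deubiquitinases was -0.02 under scale normalization and 0.05 to 0.27 with single arrays left out; that of conjugating enzymes was then -0.07 (without the first cycloheximide array) to 0.16. The cause was not tested.

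Some differences turned sign, mostly small ones; among the larger, Usp31 went from 0.40 to -0.04 under scale normalization and Fbxl7 from -0.56 to 0.21 without the third cycloheximide array. Under scale normalization they were 0.21 for Cdc20, 0.39 for Fbxo10 and Fbxo43, -0.14 for Fbxw2, -0.05 for Psmb4, -0.25 for Psmd14, 0.18 for Psme3, -0.08 for Rbx1 and Trim59, 0.20 for Sae1, -0.17 for Uba6 and Ube2b and 0.33 for Ufm1. Line medians gave 0.05 for Fbxo10, -0.05 for Psmc4, -0.03 for Psmd9 and 0.06 for Ufm1. Quantile normalization gave 0.02 for Fbxo43 and Sae1 and -0.05 for Fbxw2. Array weights gave -0.07 for Fbxw2, -0.17 for Herc4, 0.08 for Mindy2, -0.02 for Psmc4, -0.14 for Psmd14 and -0.04 for Trim59. With single arrays left out, differences ran from -0.33 to 0.10 for Cdc20, -0.07 to 0.61 for Ecpas, -0.19 to 0.12 for Fbxo10, -0.18 to 0.44 for Fbxo42, -0.33 to 0.17 for Fbxo43, -0.15 to 0.17 for Fbxw2, -0.39 to 0.35 for Herc4, -0.29 to 0.19 for Mindy2, -0.19 to 0.40 for Mysm1, -0.19 to 0.33 for Psmb4, -0.09 to 0.06 for Psmc4, -0.18 to 0.41 for Psmd14, -0.12 to 0.34 for Psmd9, -0.31 to 0.10 for Psme3, -0.44 to 0.17 for Sae1, -0.15 to 0.41 for Trim59, -0.18 to 0.68 for Uba6, -0.02 to 0.28 for Ube2b, -0.09 to 0.33 for Ube2n, -0.46 to 0.23 for Ufm1 and -0.22 to 0.16 for Usp6nl.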
